A study of Diospyros lotus with 24 samples.

Results

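The 200 most abundant contigs of Diospyros lotus buds were described here, as read from bud mRNA. A contig is a stretch of transcript sequence put together from the reads without a genome. The 200 were taken as the contigs with the highest mean CPM (counts scaled by the total of their library) over 17 progeny trees, out of 417827 contigs with mRNA counts, or 0.0479% of them. Diospyros lotus is a dioecious persimmon, with male flowers and female flowers on separate trees, and its males are XY. All trees come from the cultivar Kunsenshi: 18 trees of the KK family, which are the offspring of a male and a female Kunsenshi tree, and those parents, with no treatment named in the labels. The labels give 9 male progeny (sons), 9 female progeny (daughters) and 1 library each for the female parent (mother) and the male parent (father), made from mixed buds at early differentiation of the flower primordia. They name June 17 and July 4 of 2013 as collection dates, matching male and female primordia in that order, and do not tie a library to a date, so date and sex may coincide and cannot be told apart. Small RNA of buds was counted in 1 library for each parent. The son called male progeny replicate 5 held 387 counts in all and was left out, so that 8 sons and 9 daughters remained.

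The total per library ran from 3527282 to 15314430 counts in the 17 progeny, with 5823321 to 15314430 in sons and 3527282 to 6963244 in daughters. It was 6925001 in the mother and 6840388 in the father. Each of the 200 contigs had counts in all 19 libraries, and the lowest count of any of them was 92. The contigs are numbered and carry no gene names in the files, and 0 of their IDs matched a table of 27971 annotated Diospyros lotus genes. What the 200 encode is therefore not described, and the labelled tissue could not be checked against marker genes.

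As background, a few transcripts usually take a large part of the reads of an mRNA library, and in plant tissue these often come from housekeeping, photosynthetic and organelle genes. mRNA is enriched through its poly(A) tail, and abundant RNA without a long tail can pass this step in part. Plant small RNA libraries hold microRNAs and small interfering RNAs, which Dicer-like enzymes cut from longer RNA and Argonaute proteins use to find targets, together with fragments of abundant longer RNA. A small RNA count on a contig does not tell these kinds apart.

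The 200 contigs took a minor and fairly even part of the progeny libraries, and a larger part of the parents' libraries. Their share of all mRNA counts was 4.69% in the lowest son, 5.04% in the median son and 6.02% in the highest son. In daughters it was 4.88%, 5.67% and 6.97%. The mean was 5.25% ± 0.510 in sons (SD, n = 8) and 5.75% ± 0.667 in daughters (SD, n = 9), and the ranges overlapped over most of their length. The share was 9.08% in the mother and 11.2% in the father, above all 17 progeny. The higher share lay on 48 contigs, called the first group below: the other members took 2.51% in the mother and 2.66% in the father, below all 17 progeny, where the lowest was 2.91%. The members were chosen on progeny values alone, so the parents' values took no part in the choice. In bulk buds, fewer cells that hold an RNA and less of it per cell cannot be told apart. In the library left out, 13 of the 387 counts lay on the members, a share of 3.36% (95% exact binomial interval 1.80% to 5.68%).

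**Figure D1:**
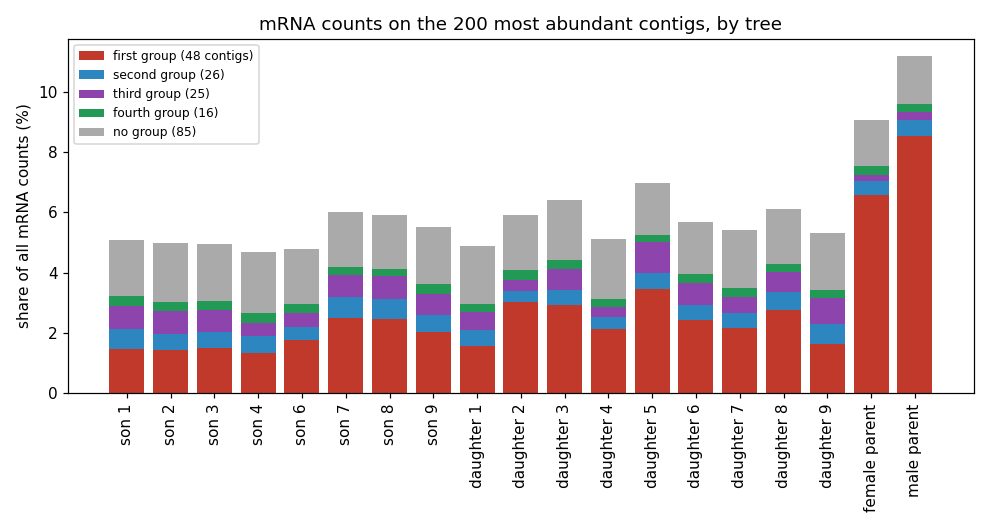
Bars give the share of all mRNA counts (%) that fell on the 200 contigs in each of 8 sons, 9 daughters and the parents, with 1 library per bar and colours for groups of contigs that vary together among the progeny. The first group takes 1.34% to 3.44% in progeny, 6.58% in the mother and 8.55% in the father. The third group runs from 0.349% to 1.04% in progeny, with 0.225% and 0.265% in the mother and father.

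Abundance fell steeply within the 200. The first 10 contigs held 23.2% of the summed mean CPM of the 200, and 47 contigs sufficed for 50% of it. Contig299042DeNovoAssembly, 2219 bases long, led with 2137.5 ± 359 CPM (SD, n = 17). Contig229955DeNovoAssembly, 263 bases long, followed with 2068 ± 682 CPM, and Contig73303DeNovoAssembly, 233 bases long, with 1505 ± 665 CPM. Contig242355DeNovoAssembly, of 216 bases, had 1177 ± 409 CPM. Contig192192DeNovoAssembly, of 1747 bases, had 1093 ± 499 CPM. Contig108837DeNovoAssembly, of 2270 bases, had 1073 ± 115 CPM. The remaining 4 of the first 10, Contig243331DeNovoAssembly, Contig258875DeNovoAssembly, Contig230897DeNovoAssembly and Contig250034DeNovoAssembly, were 224 to 276 bases long, and the highest of them had 1048 CPM. At the lower end the values were close together. The last 2 members, Contig313869DeNovoAssembly and Contig264050DeNovoAssembly, had 147.9 and 147.4 CPM, and the first 2 contigs outside, Contig196920DeNovoAssembly and Contig389590DeNovoAssembly, had 147.30 and 147.25 CPM, so membership near rank 200 separates contigs that hardly differ.

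Short contigs were common among the 200. Their median length was 1245 bases, between extremes of 202 and 21591, against 1071 over the 62831 contigs tested between the sexes and 2749 over the next 200 contigs in the order of mean CPM. Contigs under 300 bases made up 23% of the 200, 5.5% of the next 200 and 10.9% of all contigs tested. Contigs of at least 3000 bases made up 28.5%, 45% and 12.0%. Divided by length, the members' levels ran from 7.17 to 7863 CPM per kilobase, with a median of 181. By this measure Contig229955DeNovoAssembly stood highest at 7863 CPM per kilobase, Contig73303DeNovoAssembly had 6459 and Contig299042DeNovoAssembly had 963. Contig184273DeNovoAssembly, the longest member at 21591 bases, stood lowest at 7.17 and was named after its values were seen. If contigs were ranked by CPM per kilobase, 94 of the 200 would stay among the first 200.

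**Figure D2:**
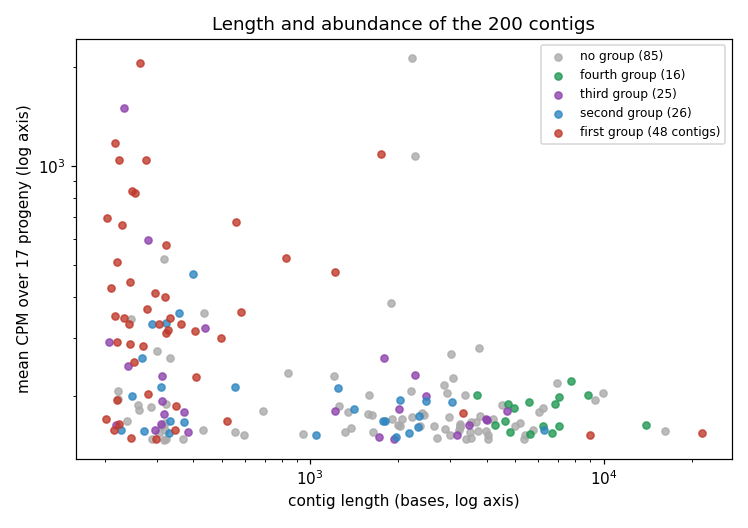
Each point is 1 of the 200 contigs, with its length in bases and its mean CPM over 17 progeny, both on log axes, coloured by co-varying group. Most contigs above 600 CPM are under 300 bases long, and the fourth group holds long contigs of 3711 to 13963 bases.

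Among the progeny the 200 contigs spread less than most contigs, with a few marked exceptions. The CV (SD divided by mean) of CPM over the 17 trees had a median of 17.4%, with a middle range of 12.3% to 32.3%. It was 17.1% within sons and 17.5% within daughters. The median was 13.5% over the next 200 contigs and 29.3% over all contigs tested, or 21.9% once counting error is subtracted. Counting error was at most 3.37% for any member, which is small beside the median CV and not beside the lowest ones. The highest tree exceeded the lowest by a median of 1.90-fold, with a range from 1.16-fold to 13.8-fold.

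The steadiest member was Contig215973DeNovoAssembly, with 163 CPM in the lowest tree, 173 in the median and 189 in the highest, a CV of 4.29%. Contig312907DeNovoAssembly had a CV of 6.12%, Contig187334DeNovoAssembly 6.18% and Contig195600DeNovoAssembly 6.69%. These 4 contigs were 2027 to 6031 bases long, and counting error alone gives them a CV of 3.08%, 3.20%, 3.32% and 3.02% in that order. At the other end, Contig276352DeNovoAssembly, of 222 bases, had 39.4 CPM in the lowest tree, 213 in the median and 546 in the highest, a CV of 58.2%. The lowest tree was a daughter and the highest a son, with both sexes spread over the range between. Contig285426DeNovoAssembly, of 333 bases, had 77.0, 237 and 593 CPM, a CV of 50.8%, and both extremes were daughters. Over all members, length and CV ran in opposite directions (Spearman's rho -0.65 across 200 contigs, which share libraries and are not independent).

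Many of the spreading contigs moved together. Contigs were grouped by the correlation of their log2(CPM + 0.5) over the 17 trees, with average linkage cut at a distance of 0.5, a choice made after seeing the data. This put 115 of the 200 into 4 groups of at least 10 contigs, and 85 into none. The median correlation between any 2 members was 0.0106, and within the groups it was 0.764, 0.692, 0.734 and 0.683. These values follow from the grouping and are given as a description. Length, the parents' levels and small RNA took no part in the grouping.

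The first group held 48 contigs, among them 7 of the first 10. Its members were mostly short, with a median of 280 bases and 42 of 48 under 600 bases, and their median CV was 33.5%. Their lengths ran from 202 to 21591 bases, so the longest of the 200, Contig184273DeNovoAssembly, is among them. Together they took 1.34% of mRNA counts in the lowest son, 1.62% in the median and 2.50% in the highest, and 1.56%, 2.43% and 3.44% in daughters. Son replicates 4, 2, 1 and 3 were the lowest of the 17 trees, and daughter replicates 5, 2 and 3 were the highest. The deepest library, son replicate 6, had 1.75% and the shallowest, daughter replicate 1, had 1.56%.

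Contig258875DeNovoAssembly shows the pattern of the first group. It had 465 CPM in the lowest son, 771 in the median and 1377 in the highest, and 624, 1102 and 1815 CPM in daughters. Contig192192DeNovoAssembly had 382, 790 and 1877 CPM in sons and 700, 1175 and 1924 in daughters. Each sex filled much of the range of the other in both contigs. Within the group, Contig404853DeNovoAssembly (362 bases) and Contig316973DeNovoAssembly (322 bases) followed each other at r = 0.995 over the 17 trees. They had 133, 259 and 743 CPM and 126, 244 and 671 CPM in the lowest, median and highest progeny, with CVs of 54.4% and 53.1%. Both were lowest in son replicate 2 and highest in son replicate 8. Contig258875DeNovoAssembly and Contig287915DeNovoAssembly followed each other at r = 0.994. Whether contigs that move this closely are pieces of the same transcript was not tested.

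The second group held 26 contigs of 226 to 6262 bases with a median CV of 20.3%, and the third held 25 contigs of 207 to 4675 bases with a median CV of 23.2%. The second group and the third group were not sharply parted: their members correlated at a median of 0.531 across the groups. The fourth held 16 long contigs, of 3711 to 13963 bases, with a median CV of 12.7%. Its members correlated at a median of -0.33 with those of the first group. CPM is a share of a library, so a higher level of one group lowers the others somewhat by arithmetic. The first group took 1.34% to 3.44% of counts in progeny and the fourth 0.229% to 0.337%. What part of the correlation comes from this was not tested.

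In the third group, 4 contigs stayed in nearly fixed proportion. Contig73303DeNovoAssembly, Contig34109DeNovoAssembly, Contig22092DeNovoAssembly and Contig379701DeNovoAssembly, 233 to 438 bases long, correlated at 0.986 or above with each other. Contig73303DeNovoAssembly had 759 CPM in the lowest son, 1742 in the median and 1878 in the highest, and 512, 1550 and 3208 CPM in daughters. Daughter replicates 2 and 4 were lowest, and daughter replicate 5 was highest. The summed level of the 4 contigs ran from 764 to 4814 CPM over the progeny.

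**Figure D3:**
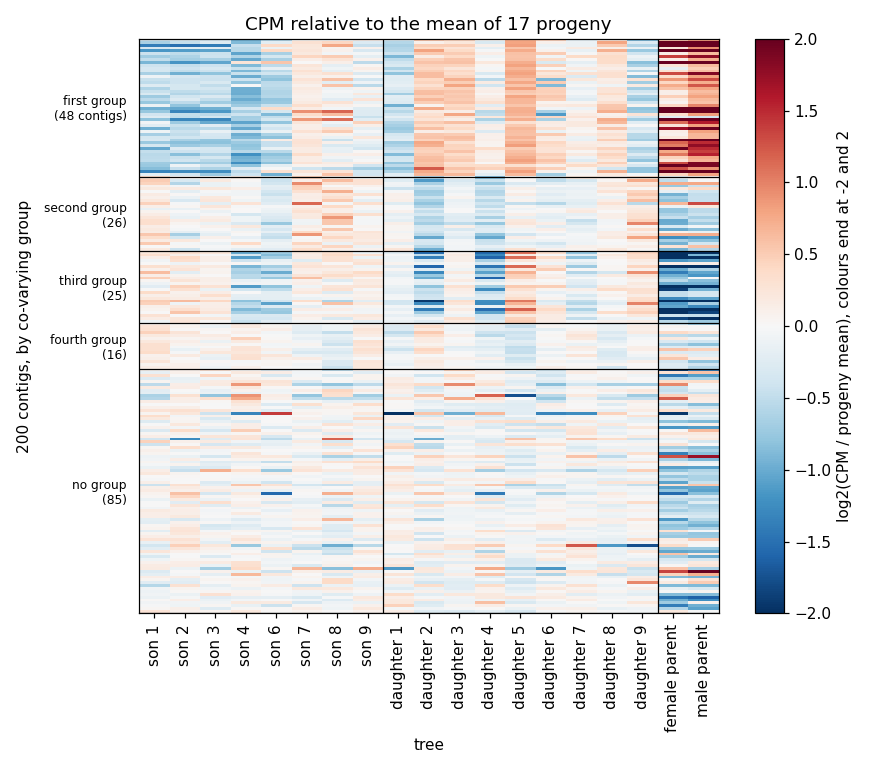
Each row is 1 of the 200 contigs and each column a tree, with 8 sons, 9 daughters and the parents. Colour gives the log2 ratio of CPM to the mean of the 17 progeny, ending at -2 and 2. Rows of the first group change together from tree to tree and are mostly red in the parents, those of the third group are mostly blue in the parents, and rows in no group show single trees that stand apart.

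Sex was tested on all 62831 contigs with enough counts, and all 200 members were among them. None of the 200 was called at an adjusted p under 0.05 (edgeR quasi-likelihood test, 17 progeny, Benjamini-Hochberg over all contigs), where 0.0493% of all contigs tested were (0.0159% higher in sons and 0.0334% higher in daughters). The lowest adjusted p of a member was 0.371. DESeq2 and limma-voom also called 0 members, and edgeR with no filter on low counts called 5, 2 higher in sons and 3 higher in daughters. The share of all contigs called without the filter is not given here, so these 5 cannot be set against a background. At an unadjusted p under 0.05 there were 41 members, 9 higher in sons and 32 higher in daughters, or 20.5% of the members against 7.08% of all contigs tested. The 7.08% covers both directions, and its split by direction is not given here. Of the 41, 29 were in the first group, whose members move together and so do not count as separate observations.

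All 48 contigs of the first group had a negative log2 fold change, son over daughter, from -0.76 to -0.05 with a median of -0.51, and 0 of the 48 passed the adjusted threshold. The sign held for all 48 with RLE factors and with library totals alone, and for 45 of 48 when the parents entered the fit with generation as a term. Each group was formed from correlation over these same progeny, so a shared sign within a group follows largely from the grouping. The 48 signs therefore do not count as separate observations. TMM factors ran from 0.970 to 1.044 in progeny, so leaving them out could hardly turn a shift of the median size. The kept signs are thus no check on the difference. In the second group 2 of 26 log2 fold changes were negative and in the fourth 0 of 16, with medians of 0.13 and 0.11, and none passed the threshold. Over all 200 members the median was -0.001 and 101 were negative, and over all contigs tested the median was 0.005. Sons were also sequenced more deeply than daughters, with median totals of 7386283 and 4963400 counts, and the part of depth in this difference was not tested. In label order, son replicates 1, 2, 3, 4 and 6 and daughter replicate 1 come before all other usable progeny. They had 1.47%, 1.44%, 1.49%, 1.34%, 1.75% and 1.56% of counts on the first group. Son replicates 7, 8 and 9 had 2.50%, 2.46% and 2.01%, and the other daughters 1.62% to 3.44%. Sex and label order partly coincide, and the part of label order was not tested. The members outside the first group took 3.03% to 3.60% of counts in sons and 2.91% to 3.69% in daughters.

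The member with the lowest p, Contig285238DeNovoAssembly, belongs to the first group and is 406 bases long. It had 198 CPM in the lowest son, 239 in the median and 361 in the highest, and 250, 378 and 462 CPM in daughters. The ranges overlapped. The log2 fold change, son over daughter, came to -0.51 (SE 0.13, edgeR adjusted p = 0.371), and the adjusted p lay between 0.0902 and 0.657 when single trees were left out. Contig283324DeNovoAssembly, also of the first group, had 143 ± 36.1 CPM in sons (SD, n = 8) and 225 ± 66.9 in daughters (SD, n = 9), with an edgeR adjusted p of 0.446. On the other side, Contig409673DeNovoAssembly of the second group, 331 bases long, had 142, 167 and 221 CPM in sons and 116, 135 and 158 in daughters. The ranges overlapped only between 142 and 158 CPM, and the log2 fold change came to 0.35 (SE 0.10, edgeR adjusted p = 0.443). With no filter on low counts, Contig285238DeNovoAssembly and Contig409673DeNovoAssembly were called (edgeR adjusted p = 0.000186 and 0.0118). Contig111597DeNovoAssembly, 2029 bases long, had 237 ± 86.3 CPM in sons and 157 ± 36.6 in daughters, with an edgeR adjusted p of 0.493.

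The 3 of the first 10 contigs that lie outside the first group had closer means. Contig299042DeNovoAssembly had 2111 ± 367 CPM in sons and 2161 ± 373 in daughters (SD, n = 8 and 9), and its log2 fold change was -0.04 (SE 0.11). Contig108837DeNovoAssembly had 1076 ± 109 and 1070 ± 127 CPM, with a log2 fold change of 0.002 (SE 0.07). Contig73303DeNovoAssembly had 1509 ± 441 and 1501 ± 845 CPM, with a log2 fold change of -0.004, but its SE was 0.35, so a difference of moderate size would not be visible for it. The 7 contigs of the first 10 inside the first group were all lower in sons on average. Contig229955DeNovoAssembly, the most abundant of them, had 1724 ± 406 CPM in sons and 2373 ± 751 in daughters, with a log2 fold change of -0.47 (SE 0.22, edgeR adjusted p = 0.698). The largest log2 fold change of any member was 0.76 in size.

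In the parents the 200 contigs were reordered. With 1 library per parent and the progeny side used to choose the members, the values are given without a test. Of the 200 contigs with the highest mean CPM in the parents, 98 (49%) were among the members, whereas 132 to 167 of each progeny tree's own first 200 were. Between the parents, 127 of the 200 were higher in the father, with a median ratio of 1.11. The matching values over all contigs tested are not given here, so a lean particular to the members cannot be read from this. A ratio of at least 2 was found for 4 members higher in the father, against 5.83% of all contigs tested, and for 3 higher in the mother, against 7.75%.

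Against the progeny mean, 21 of the 200 members were at least 2-fold higher in both parents and 19 at least 2-fold lower in both, where 5.42% and 9.75% of all contigs tested were, and 6.5% and 11% of the next 200 contigs. In 26 members both parents exceeded all 17 progeny trees (8.75% of all contigs tested) and in 67 both lay below all of them (16.2%). These counts depend on the width of the progeny range, and the median CV was 17.4% in members against 29.3% in all contigs tested. The median log2 ratio to the progeny mean was -0.21 in the mother and -0.22 in the father, close to -0.23 and -0.26 over all contigs tested and above -0.39 and -0.43 over the next 200. The mother exceeded the progeny mean in 42.5% of members, 38.8% of all contigs tested and 19.5% of the next 200, and the father in 42.5%, 37.3% and 18.5%. On CPM the parents are shifted down as a whole: with TMM scaling, which sets aside contigs of extreme change, the median of all contigs became -0.05 in both parents, and 10 members instead of 19 were at least 2-fold lower in both. Choosing members for a high level in progeny by itself favours lower values elsewhere.

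Most contigs at least 2-fold higher in both parents belonged to the first group. Of its 48 contigs, 46 exceeded the progeny mean in both parents and 19 did so at least 2-fold, out of 21 such members in all. The group's median log2 ratio was 0.56 in the mother and 0.91 in the father (0.74 and 1.12 with TMM scaling). All 48 were also among the first 200 contigs of the parents. Contig258875DeNovoAssembly, at 465 to 1815 CPM in progeny, had 9499 CPM in the mother and 9973 in the father, ranks 1 and 2 of all contigs there. Contig305234DeNovoAssembly, of 558 bases, had 299 to 1124 CPM in progeny, with 7314 and 10801 CPM in the mother and father. Contig274877DeNovoAssembly had 163 to 559 CPM in progeny against 3900 and 4457.5 CPM. Contig287915DeNovoAssembly had 59.7 to 262 CPM against 1657 and 1787 CPM. These 4 were 9.11 to 15.9 times the progeny mean, and neither parent overlapped the progeny.

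The ratios differed widely within the group. Contig229955DeNovoAssembly, the second most abundant contig in progeny, was 1.46 times the progeny mean in the mother and 1.78 times in the father, and the mother lay above 15 of the 17 trees only. Contig404853DeNovoAssembly and Contig316973DeNovoAssembly set the parents apart: they had 1431.5 and 1341 CPM in the mother and 4219 and 3972 CPM in the father, both close to 3-fold higher in the father (2.95 and 2.96). Contig285238DeNovoAssembly was the only contig of the group below the progeny mean in both parents, at 272 and 242 CPM.

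The contigs farthest below the progeny in both parents were the 4 that kept a fixed proportion in the third group. Contig73303DeNovoAssembly, at 512 to 3208 CPM in progeny, had 124 CPM in the mother and 150 in the father, so that the progeny mean was 12.1-fold and 10.1-fold higher. Contig22092DeNovoAssembly had 83.6 to 545 CPM in progeny against 17.5 and 22.4 CPM. Contig34109DeNovoAssembly had 107 to 701 CPM against 28.0 and 35.1 CPM, and Contig379701DeNovoAssembly 54.8 to 360 against 13.9 and 13.5 CPM. Their sum was 184 and 220 CPM in the parents, below the lowest progeny tree at 764 CPM. Of the 25 contigs of the third group, 23 were below the progeny mean in both parents and 12 at least 2-fold, and its median log2 ratio was -1.16 and -1.03 in the mother and father.

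The leading contig also ranked lower in the parents. Contig299042DeNovoAssembly had 1469 to 2979 CPM in progeny, 554 CPM in the mother and 799 in the father, below all 17 trees and at ranks 42 and 33. Contig108837DeNovoAssembly, at 824 to 1229 CPM in progeny, had 1305 and 1593 CPM in the parents, above all 17 trees but by less than 1.5-fold. The steady Contig187334DeNovoAssembly was the closest of the named contigs to its progeny mean, with 147 and 155 CPM against 149 ± 9.19 CPM (SD, n = 17).

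**Figure D4:**
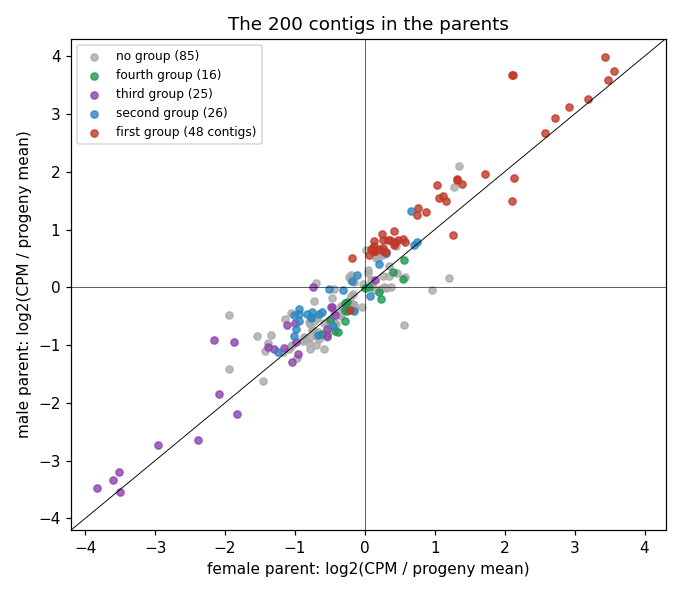
Each point is 1 of the 200 contigs. The axes give the log2 ratio of CPM in the mother and in the father to the mean of 17 progeny, and the diagonal marks equal ratios. Points lie along the diagonal, with the first group at the upper end and contigs of the third group at the lower end, and the close pair of the first group lies above the diagonal.

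Bud small RNA was counted on nearly all members, and almost all of it lay on the first group. Small RNA reads on the 200 contigs numbered 816585 of 19315399 in the mother, or 4.23% (95% exact binomial interval 4.22% to 4.24%), and 948704 of 14168901 in the father, or 6.70% (6.68% to 6.71%). The intervals cover counting error only. The first group held 98.5% of the members' small RNA counts in the mother and 98.6% in the father. No count was found on 1 member in the mother and on 3 in the father, where a count of 0 allows up to 3 counts, or 0.155 CPM in the mother and 0.212 CPM in the father.

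Of the 200 members, 48 (24%) had at least 1000 small RNA counts over both parents, against 6.5% of the next 200 contigs and 2.35% of all contigs tested. Of these 48, 45 belong to the first group. The other 3, named after their values were seen, were Contig398495DeNovoAssembly with 6835 counts, Contig299042DeNovoAssembly with 3431 and Contig390936DeNovoAssembly with 1367. The 3 contigs of the first group under that level, Contig250034DeNovoAssembly, Contig243331DeNovoAssembly and Contig285238DeNovoAssembly, had 530, 497 and 327. The median density was 42158 small RNA counts per kilobase in the first group and 28.2 in the other members, where all contigs tested had a median of 14.1.

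**Figure D5:**
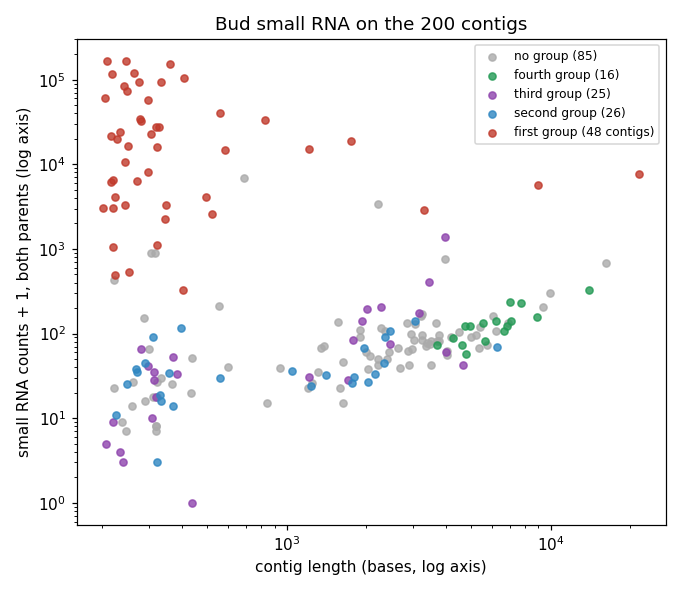
Each point is 1 of the 200 contigs, with its length in bases and its small RNA counts plus 1, summed over both parents, on log axes. The first group lies between 327 and 166408 counts, mostly above contigs of the same length in the other groups, which hold up to 6835 counts.

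The contigs with the most small RNA were short. Contig291725DeNovoAssembly, of 209 bases, led with 79385 counts in the mother and 87023 in the father. Contig287915DeNovoAssembly, of 245 bases, had 82798 and 82628. Contig404853DeNovoAssembly had 68621 and 84328, Contig229955DeNovoAssembly 51881 and 69327, and Contig291467DeNovoAssembly, of 217 bases, 53795 and 63728. Among these 5, mRNA and small RNA of the mother, both per kilobase, did not follow the same order. Contig291725DeNovoAssembly had 379830 small RNA counts and 2727 CPM of mRNA per kilobase there, and Contig229955DeNovoAssembly had 197270 small RNA counts and 11502 CPM. The 233-base Contig73303DeNovoAssembly, high in progeny mRNA and low in that of the parents, had 3 small RNA counts in the mother and 0 in the father, and the 4 contigs of its fixed proportion had 45 counts together. Across the 200 members, density of small RNA and level of mRNA per kilobase in the same parent went together in part (Spearman's rho 0.70 in the mother and 0.73 in the father, over contigs that share libraries and whose measures are both divided by length).

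Between the parents, members carried more small RNA in the father. Over all members the ratio of CPM, male over female parent, was 1.58 (95% exact conditional interval 1.58 to 1.59), against 1.17 over all contigs tested and 1.63 (1.62 to 1.65) over the next 200, so the pooled ratio was not higher in the members than in the contigs ranked after them. With 1 small RNA library per parent there is no replicate check. Among the 136 members with at least 50 counts the median ratio was 1.40 and 112 (82.4%) lay above 1, against a median of 0.939 and 42.1% above 1 over the 14816 tested contigs with that many counts. Among 132 of the next 200 contigs with at least 50 counts, the median was 1.26 and 72.0% lay above 1. The median was 1.70 in the first group and 1.30 in the 88 other members with at least 50 counts.

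Of the 188 members with at least 10 small RNA counts, 24 were 2-fold or more higher in the father and 3 were 2-fold or more higher in the mother, where 13.4% and 6.06% of all such contigs tested did. At 50 counts the numbers were 15 and 1 of 136, beside 4.76% and 3.77%. The highest ratio among members with at least 50 counts was that of Contig316973DeNovoAssembly, with 3275 counts in the mother and 12869 in the father, 5.36-fold (5.15 to 5.57). Its close partner in mRNA, Contig404853DeNovoAssembly, had a ratio of 1.68 (1.66 to 1.69), so contigs that followed each other in mRNA differed in small RNA, beyond counting error. Contig226494DeNovoAssembly, of 436 bases, had 15 and 36 counts, a ratio of 3.27 (1.75 to 6.43), and Contig240661DeNovoAssembly had 1894 and 4537 counts, a ratio of 3.27 (3.09 to 3.45).

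On the side of the mother the counts were low. Contig369036DeNovoAssembly, of 372 bases in the third group, had 40 counts in the mother and 12 in the father, a ratio of 0.409 (0.195 to 0.795). Contig252982DeNovoAssembly had 84 and 31 counts, a ratio of 0.503 (0.322 to 0.768), and Contig136196DeNovoAssembly had 94 and 38, a ratio of 0.551 (0.368 to 0.811). Of the 48 contigs of the first group, 45 had a ratio above 1. The exceptions, named after their values were seen, were Contig335672DeNovoAssembly, with 38935 and 18138 counts and a ratio of 0.635, Contig279960DeNovoAssembly with 0.821, and Contig285238DeNovoAssembly with 0.923. In mRNA 44 of the 48 were also higher in the father, a count for which the share over all contigs tested is not given here.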

How the data were processed

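Per the labels' protocols, bud mRNA was isolated on beads and copied by random priming. Raw read counts per de novo assembled contig were deposited by the authors for bud mRNA, 1 column a library, and for the parents' bud small RNA, beside contig length in bases. BWA, DESeq 1.14 and R 3.0.1 appear in the submitters' processing notes. The treatment of reads with several matches, strand and small RNA read lengths was not stated in the labels, so contigs of similar sequence may share reads. CPM was computed here from column totals, which gives the depth stated with the results.

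Sex was tested with edgeR 4.0.16 (R 4.3.3) in 17 progeny, with filterByExpr, TMM scaling and the robust quasi-likelihood test. Benjamini-Hochberg adjustment ran over 62831 contigs, with calls at 0.05, and the SE was derived from the F statistic. DESeq2 1.42.0, limma-voom (limma 3.58.1), other scalings, filters and lists, and leaving out single trees were alternatives. Tested on simulated data for this comparison over 62831 contigs, with 200 abundant contigs altered, the fit recovered 100% of 2-fold and 54% of 1.5-fold changes. The simulated spread followed mean level alone, and all 200 were altered at once, which makes the adjustment easier to pass. The recovery therefore does not carry over to members that spread more widely, such as the first group with its median CV of 33.5%. Each library is a separate tree, and p-values set the difference between the sexes against the spread between trees of the same sex. They speak for trees of the KK family only. Small RNA and the parents were described without a test. Correlations and groups used scipy 1.17.1.

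Named contigs follow a set rule: the 10 highest, the extremes of sex difference, CV, parents' ratio, small RNA count and small RNA ratio, and those at the threshold. The members, lists and tests were chosen with earlier results of these data known. Small RNA of flowers was not analysed here.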

Additional observations from a re-analysis of the deposited data

Results flagged for a closer look

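Single trees stood apart from the others of their sex in 6 of 76 sets of values examined. Chance flags about 1 in 20 sets that were not picked by their values, which does not apply as such here, since several contigs were named for a wide spread or a sex difference. No explanation was tested for any of them. Among sons, male progeny replicate 7 had 430.7 CPM of Contig111597DeNovoAssembly, with the nearest son at 268.1. The same son had 220.1 CPM of Contig283324DeNovoAssembly, with the nearest at 157.2. It was also the lowest son for the steady Contig215973DeNovoAssembly, at 165.5 CPM beside 171.1, where counting error is 3.08% of the mean level. Male progeny replicate 6, the deepest library, had 545.8 CPM of Contig276352DeNovoAssembly, with the nearest son at 242.9. Among daughters, female progeny replicate 3 had 2979 CPM of Contig299042DeNovoAssembly, with the nearest daughter at 2287. Female progeny replicate 5 had 360 CPM of Contig379701DeNovoAssembly, with the nearest at 207.8.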

How the results depend on the processing

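No paired analysis was possible because the replicate numbers were given in accession order and pair no trees. Between the sexes, 0 members were called under all alternatives run except no filter on low counts, which called 5. The share of all contigs called by that fit is not given here, and the cause was not tested. The list itself decides most of the other values. With 100 contigs, the mean share of mRNA counts was 3.902% in progeny, 7.449% in the mother and 9.489% in the father, and with 500 contigs 9.325%, 12.54% and 14.78%. Ranked by CPM per kilobase it was 4.746%, 8.538% and 10.93%. The median length of the members was 1398 bases ranked by median CPM, 291.5 by CPM per kilobase, 352.5 with 100 contigs and 2160 with 500, and the median CV was 16.85%, 30.51%, 23.83% and 14.51% in that order. Leaving out single trees gave a median CV of 16.75% to 17.98% and kept 193 to 198 members. The small RNA share under the same 4 lists was 3.746%, 4.978%, 3.613% and 4.93% in the mother and 6.058%, 7.836%, 5.839% and 7.824% in the father.

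Members 2-fold higher in both parents numbered 34 with 500 contigs, and 9 at 4-fold. Those lower in both numbered 34 by CPM per kilobase, 8 with 100 contigs, 49 with 500, 10 with TMM scaling, and 6 at 4-fold. At 2-fold on CPM, 5.42% of all contigs tested were higher in both parents and 9.75% lower. A longer list thus holds more such contigs by its size alone. The shares at 4-fold are not given here. Members with 2-fold more small RNA in the father numbered 12 with 100 contigs, 62 with 500, 2 at 4-fold and 15 at a minimum of 50 counts. Those with more in the mother numbered 7 by CPM per kilobase, 0 with 100 contigs, 10 with 500, 0 at 4-fold and 1 at a minimum of 50 counts. Of tested contigs with at least 10 small RNA counts, 13.4% were 2-fold higher in the father and 6.06% in the mother. With at least 50 counts it was 4.76% and 3.77%. Of the first group, 43 to 48 contigs stayed together when single trees were left out, and 30 with complete linkage. With sons alone 34 of them stayed together, in a largest group of 46 contigs, and with daughters alone 44, in a largest group of 45. The alternatives for this group were added after seeing the data. The second group and the third group joined in 10 of the 17 fits that left out single trees. Each parent is 1 library, contig sequences were not used here, and counts on pieces of the same transcript are not independent.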
